A study of Mus musculus with 6 samples.

Results

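Keratins are the genes described here: every named gene on the array whose symbol is Krt followed directly by digits, which gave 52 of the 19938 named genes tested. Each of the 52 was read by 1 probe set with a single gene symbol. RNA came from cultured epidermal keratinocytes of C57BL/6 mouse embryos (E18.5, shortly before birth), grown for 2 to 5 days without added calcium, and was hybridised to 6 Affymetrix arrays, 2 per group, with RNA of 2 mice on each. Control mice were Ovol2flox/+ with either Ovol1+/- or K14-Cre, so they kept at least one working copy of both zinc finger factors. The Ovol1 KO label stands for Ovol1-/- mice, and the Ovol1/2 DKO label for Ovol1-/- mice that were also Ovol2flox/- with K14-Cre. K14-Cre is a recombinase driven by the promoter of a keratin gene, Krt14, and it acts in keratin 14-expressing cells only, while the Ovol1 deletion is in the whole animal. All 6 samples carry a female label.

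Keratins are the intermediate filament proteins of epithelial cells. A type I keratin pairs with a type II keratin, and the pair assembles into filaments that are anchored at desmosomes and hemidesmosomes and give the cell its mechanical strength. In epidermis, basal cells make Krt5 with Krt14, and cells that leave the basal layer switch to Krt1 with Krt10. Wounded or cultured epidermis adds the stress keratins Krt6a, Krt6b, Krt16 and Krt17, simple epithelia use Krt8 with Krt18 together with Krt7 and Krt19, and hair follicles hold keratins of their own. In mouse most type I genes lie in a cluster on chromosome 11 and the type II genes, with the type I gene Krt18, in a cluster on chromosome 15.

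Values are log2(intensity + 16) of the deposited signal, written below as log2 levels, where dim genes show less than their full change. A level of 6.20 was called near background, being the highest median, over arrays, of the probe sets without a gene name. Probe sets differ in how brightly they bind, so levels are compared between arrays and not between genes. The Ovol1 level was 9.64 and 9.95 on the control arrays, 10.75 and 9.80 on those labelled Ovol1 KO and 5.96 and 6.22 on the Ovol1/2 DKO arrays. The Ovol1 signal thus went against the Ovol1 KO label, and any direction drawn from those arrays rests on the label alone. The Ovol2 level was 8.37 and 6.97 on the control arrays, 7.88 and 8.38 on those labelled Ovol1 KO and 7.63 and 7.496 on the Ovol1/2 DKO arrays, so the signal did not show the loss of Ovol2 (Ovol1/2 DKO minus control -0.10, SE 0.45, not passing). Whether either probe set lies in the deleted part is not known here. Control replicate 1 and replicate 1 labelled Ovol1 KO had Xist levels of 4.43 and 4.54, against 10.99 to 11.43 on the other arrays, although all samples are labelled female. Of 10 keratinocyte markers that are no keratins, 9 had a value, and the median level of the list was 11.57 to 12.15 on every array. Of these 9, the adhesion genes Cdh1 (log2 difference -1.57) and Dsg3 (-1.25) were lower in Ovol1/2 DKO than in control by the test. The fibroblast list (9 genes) had a median level of 7.16 and 7.97 on the control arrays, 7.23 and 8.04 on those labelled Ovol1 KO and 7.48 and 7.998 on the Ovol1/2 DKO arrays, with 1 of its genes, Thy1, higher in Ovol1/2 DKO than in control by the test, and a second, Postn, with replicate number as a block. The melanocyte list (8 genes) had a median level of 7.32 and 7.56, 7.33 and 6.44, and 6.80 and 6.14 in the same order. None of its genes passed, but 7 of the 8 were below 0 in Ovol1/2 DKO minus control (median log2 difference -0.66), against 8848 of 19938 genes. The part of other cell types in the keratin results was not tested.

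The comparison of Ovol1/2 DKO with control asked which genes differ in mice labelled as lacking both factors. Of the 52 keratins, 7 were lower in Ovol1/2 DKO and none was higher at a limma adjusted p under 0.05. The 7 were the stress keratins Krt6b and Krt16, the simple epithelial keratins Krt7, Krt8 and Krt19, the suprabasal keratin Krt80, and Krt90. That is 13.5% of the keratins, against a background of 2.02% of all 19938 genes that passed in either direction 1.40% that passed as lower and 0.622% as higher. With replicate number as a block the same 7 passed, against 2.99% of all genes. The median log2 difference of all 52 keratins was -0.06, and that of all genes was 0.03. Both Ovol1/2 DKO arrays lay below both control arrays for 21 keratins (background 18.1% of all genes) and above them for 9 (background 21.1%). In these bulk samples, fewer cells of a type and less RNA per cell cannot be told apart.

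**Figure D1:**
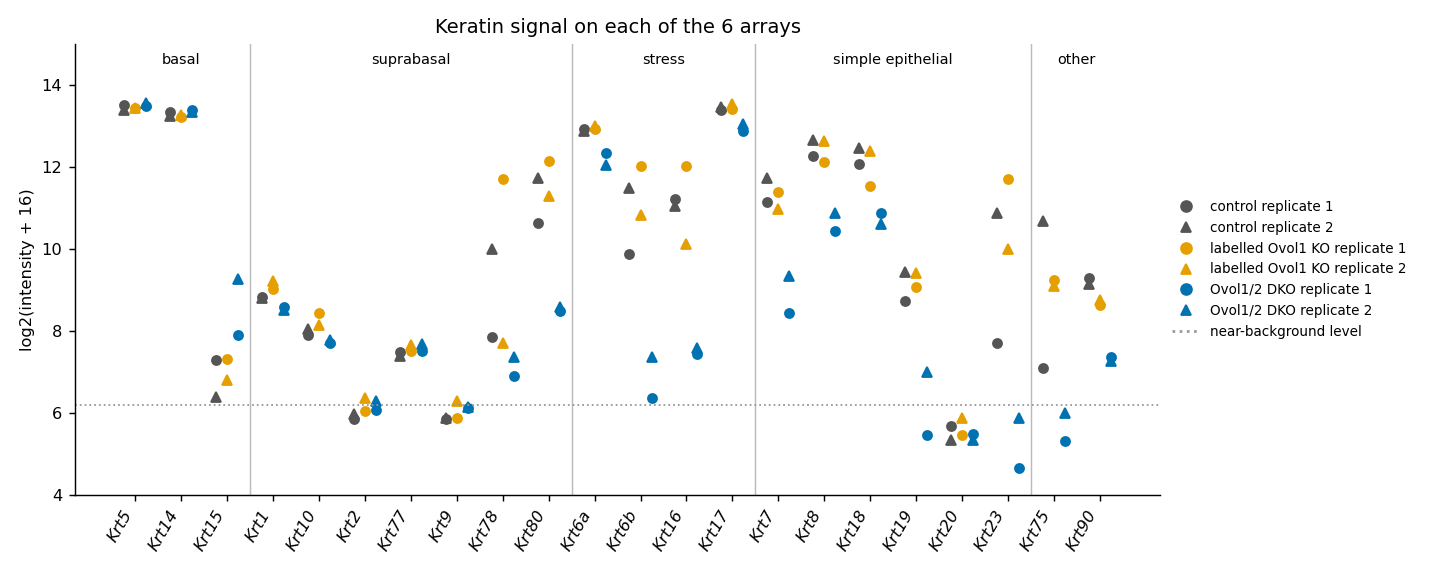
Log2 level (y axis, log2(intensity + 16)) of 22 keratins (x axis, grouped by role) on each of the 6 arrays; circles are replicate 1, triangles replicate 2, colours the groups, and the dotted line is the near-background level of 6.20. Krt5 and Krt14 stay between 13.21 and 13.55 on all arrays, while the Ovol1/2 DKO points of Krt6b, Krt16, Krt7, Krt8, Krt19, Krt80 and Krt90 lie below all other points. The same holds for Krt1, Krt6a, Krt10, Krt17, Krt18, Krt23, Krt75 and Krt78, which did not pass against control.

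The count depended on the arrays, and the share of all genes that passed moved with it. A smaller share of all genes passed without control replicate 2 or without either Ovol1/2 DKO array, and the count of keratins fell with it. It held only Krt90 without control replicate 2, Krt7 and Krt19 without Ovol1/2 DKO replicate 2, and no keratin without Ovol1/2 DKO replicate 1. The count became 1 with an offset of 64 in place of 16 (0.777%). Without both arrays that lacked Xist signal, control and the Ovol1 KO label keep 1 array each. The within-group spread of that fit comes from the Ovol1/2 DKO arrays alone, so its calls leave out the spread between control arrays.

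The basal keratins were not lower. Krt5, the type II keratin of basal cells, had log2 levels of 13.52 and 13.39 on the control arrays, 13.44 and 13.45 on those labelled Ovol1 KO and 13.49 and 13.55 on the Ovol1/2 DKO arrays. Its type I partner Krt14 read 13.34 and 13.25, 13.21 and 13.28, and 13.39 and 13.35. The 3 groups lay within 0.2 of one another for both genes, and the difference from control was 0.07 (SE 0.19) for Krt5 and 0.07 (SE 0.19) for Krt14, neither passing. The brightest probe set on any array read 14.30, and how far signals this bright still follow the amount of RNA is not known here. Krt15, a basal keratin that also marks the stem cell region of the hair follicle, read 7.30 and 6.40 on the control arrays, 7.32 and 6.81 on those labelled Ovol1 KO and 7.90 and 9.27 on the Ovol1/2 DKO arrays. Both Ovol1/2 DKO arrays were the highest of the 6, yet they lay apart from each other, and the difference of 1.74 (SE 0.50) did not pass (limma adjusted p = 0.215). Krt15 passed under 1 of 15 alternatives, the one without both arrays that lacked Xist signal (2.19). The within-group spread there came from the Ovol1/2 DKO arrays alone.

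Among 4 stress keratins, which epidermis makes on wounding, in inflammation and in culture, 2 fell and 2 did not pass, with a median log2 difference of -2.17. Krt16 had levels of 11.22 and 11.05 on the control arrays, 12.02 and 10.12 on those labelled Ovol1 KO and 7.43 and 7.58 on the Ovol1/2 DKO arrays. The Ovol1/2 DKO arrays were the lowest by more than the whole spread of the other 4, and Krt16 fell 12.4-fold (-3.63, SE 0.55, limma adjusted p = 0.0300). Krt6b read 9.89 and 11.49 on the control arrays, 12.02 and 10.82 on those labelled Ovol1 KO and 6.37 and 7.37 on the Ovol1/2 DKO arrays. It fell 14.1-fold (-3.82, SE 0.64, limma adjusted p = 0.0395), although the control arrays differed from each other by 1.60. Krt6a, the neighbour of Krt6b and a close relative in sequence, read 12.93 and 12.88 on the control arrays, 12.93 and 13.00 on those labelled Ovol1 KO and 12.33 and 12.05 on the Ovol1/2 DKO arrays. Krt17, the type I stress keratin next to Krt16, read 13.39 and 13.47, 13.41 and 13.54, and 12.89 and 13.05. For both of them the Ovol1/2 DKO arrays were again the lowest of the 6, but the differences of -0.72 (SE 0.20) and -0.46 (SE 0.19) did not pass (limma adjusted p = 0.194 and 0.477). The size of the fall was not tested between Krt6b and Krt6a or between Krt16 and Krt17. Whether the probe sets of such close relatives read one another was not checked, so the split within these pairs is uncertain.

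Of the 6 simple epithelial keratins, 3 fell and 3 did not pass, with a median log2 difference of -2.17. Krt7 had levels of 11.14 and 11.72 on the control arrays, 11.38 and 10.98 on those labelled Ovol1 KO and 8.43 and 9.34 on the Ovol1/2 DKO arrays, a 5.83-fold fall (-2.54, SE 0.37, limma adjusted p = 0.0259). Krt8, the type II keratin of simple epithelia, read 12.27 and 12.65, 12.13 and 12.64, and 10.45 and 10.89, and fell 3.46-fold (-1.79, SE 0.28, limma adjusted p = 0.0316). Both keratins lay below every other array in both Ovol1/2 DKO arrays. Krt18, the type I partner of Krt8 and its neighbour on chromosome 15, read 12.07 and 12.46 on the control arrays, 11.54 and 12.38 on those labelled Ovol1 KO and 10.87 and 10.61 on the Ovol1/2 DKO arrays. Its groups did not overlap either, but the difference of -1.53 (SE 0.32) did not pass (limma adjusted p = 0.0813). Krt18 passed under 5 of 15 alternatives, against 6 for Krt19. Krt19, a type I keratin of simple epithelia, read 8.72 and 9.44, 9.06 and 9.41, and 5.45 and 6.99. It fell 7.25-fold (-2.86, SE 0.51, limma adjusted p = 0.0477) to a mean of 6.22, at the near-background level, with Ovol1/2 DKO arrays 1.53 apart.

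Krt23, a type I keratin, lay far apart within each group, and its Ovol1/2 DKO mean of 5.27 was below the near-background level. It read 7.71 and 10.87 on the control arrays, 11.70 and 10.00 on those labelled Ovol1 KO and 4.66 and 5.88 on the Ovol1/2 DKO arrays. All 4 other arrays lay above both Ovol1/2 DKO arrays, but the control arrays were 3.16 apart, and the difference of -4.02 (SE 1.05) did not pass (limma adjusted p = 0.162). Without control replicate 1, or without both arrays that lacked Xist signal, it was -5.59, and without control replicate 2 it was -2.44. Each of these fits kept 1 control array, so the gap between the control arrays did not count in it. Krt20, a keratin of intestinal epithelium and Merkel cells, was near background on all arrays (5.33 to 5.88). The Merkel cell factor Atoh1 lay between 6.12 and 6.55 on the 6 arrays, and the median level of 6 Merkel cell markers between 6.10 and 6.50. None of the 6 passed (median log2 difference -0.05). Markers at such levels, close to the near-background level, can show little of a fall. Merkel cells also make Krt8, and their part in the fall of Krt8 was not tested.

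**Figure D2:**
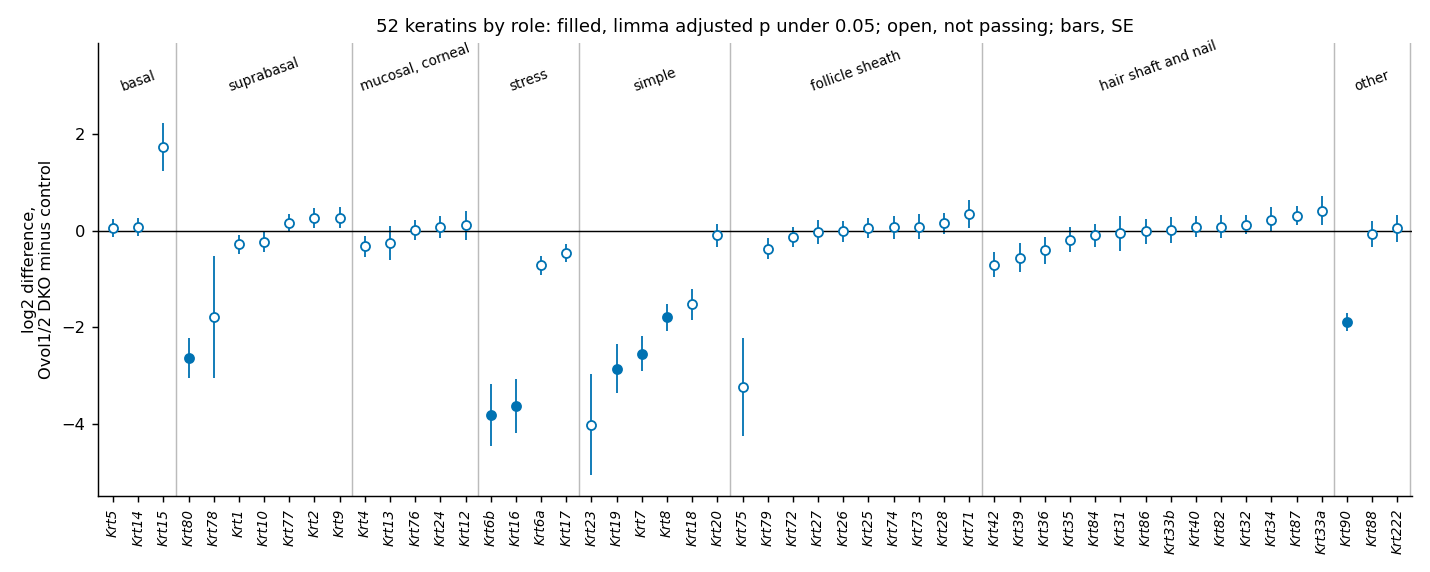
Log2 difference, Ovol1/2 DKO minus control (y axis), of the 52 keratins (x axis, grouped by role and ordered by difference); bars are the standard error of the limma fit, filled circles passed at an adjusted p under 0.05 and open circles did not. The 7 filled circles lie between -3.82 and -1.79, and the follicle sheath, hair shaft and mucosal keratins lie between -0.70 and 0.42, apart from Krt75 at -3.25.

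The suprabasal keratins of epidermis did not move as a group. The pair of the spinous layer gave no passing difference: Krt1 read 8.84 and 8.81 on the control arrays, 9.03 and 9.20 on those labelled Ovol1 KO and 8.58 and 8.51 on the Ovol1/2 DKO arrays, and Krt10 read 7.90 and 8.04, 8.43 and 8.14, and 7.72 and 7.77. For both, the Ovol1/2 DKO arrays were the lowest and those labelled Ovol1 KO the highest. The differences from control of -0.28 (SE 0.19) and -0.23 (SE 0.20) did not pass. Krt80, a type II keratin of differentiating epithelia, was the exception in this list of 7. Its levels were 10.62 and 11.74 on the control arrays, 12.14 and 11.30 on those labelled Ovol1 KO and 8.49 and 8.59 on the Ovol1/2 DKO arrays, a 6.22-fold fall (-2.64, SE 0.42, limma adjusted p = 0.0354). Krt78, another type II keratin of the epidermis, read 7.85 and 9.99, 11.70 and 7.70, and 6.90 and 7.36, so that arrays of one group lay further apart than the groups did, and its difference of -1.79 (SE 1.26) did not pass (limma adjusted p = 0.886). Krt78 was at -2.86 without control replicate 1, at -0.72 without control replicate 2 and passed in neither fit, and it passed without both arrays lacking Xist signal (-2.86, limma adjusted p = 0.000883). Krt77 read 7.39 to 7.67 on the 6 arrays. Krt2, of the upper spinous and granular layers, and Krt9, of palm and sole skin, read 5.85 to 6.36 and 5.86 to 6.29 over the 6 arrays. The median log2 difference of the 7 genes was -0.23.

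Krt90, a type II gene, had the smallest adjusted p of the family. It read 9.28 and 9.15 on the control arrays, 8.64 and 8.77 on those labelled Ovol1 KO and 7.37 and 7.27 on the Ovol1/2 DKO arrays. The arrays of each group lay close together and no groups overlapped. It fell 3.71-fold against control (-1.89, SE 0.19, limma adjusted p = 0.00903) and passed under 13 of 15 alternatives, losing the call without either Ovol1/2 DKO array.

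Hair follicle keratins gave no passing gene with all 6 arrays, where 2.02% of all genes passed. Among 10 keratins of the follicle sheaths the median log2 difference was 0.02, and 4 of the 10 were near background in all groups. Krt75, of the companion layer of the follicle, had the lowest difference of these, with levels of 7.10 and 10.69 on the control arrays, 9.25 and 9.09 on those labelled Ovol1 KO and 5.30 and 5.99 on the Ovol1/2 DKO arrays. The Ovol1/2 DKO arrays were the lowest, but the control arrays were 3.59 apart, and the difference of -3.25 (SE 1.02) did not pass (limma adjusted p = 0.257). It was -5.04 without control replicate 1 and without both arrays lacking Xist signal, and -1.45 without control replicate 2. These fits kept 1 control array each and so left out the gap between the control arrays. Krt79, of the follicle's upper duct, differed by -0.37 (SE 0.21) and Krt71, of the inner root sheath, by 0.35 (SE 0.29). Among 14 keratins of hair shaft and nail the median was 0.01 and the range -0.70 to 0.42. Krt42, which lies next to Krt17, gave the lowest of these (9.89 and 9.70 on the control arrays, 9.61 and 10.22 on those labelled Ovol1 KO and 8.96 and 9.23 on the Ovol1/2 DKO arrays; -0.70, SE 0.26, limma adjusted p = 0.392), ahead of Krt39 at -0.55 (SE 0.31) and with Krt87 at 0.31 (SE 0.20) on the other side. The list of hair follicle matrix and sheath markers that are no keratins had no passing gene of 10 and a median log2 difference of -0.01. No member passed either among 5 keratins of mucosa, cornea and other stratified epithelia (median 0.02), where the mucosal pair Krt4 and Krt13 differed by -0.32 (SE 0.22) and -0.25 (SE 0.35) and the corneal keratin Krt12 by 0.11 (SE 0.30). Krt88 and Krt222, placed in no role, differed by -0.07 (SE 0.27) and 0.05 (SE 0.28).

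**Figure D3:**
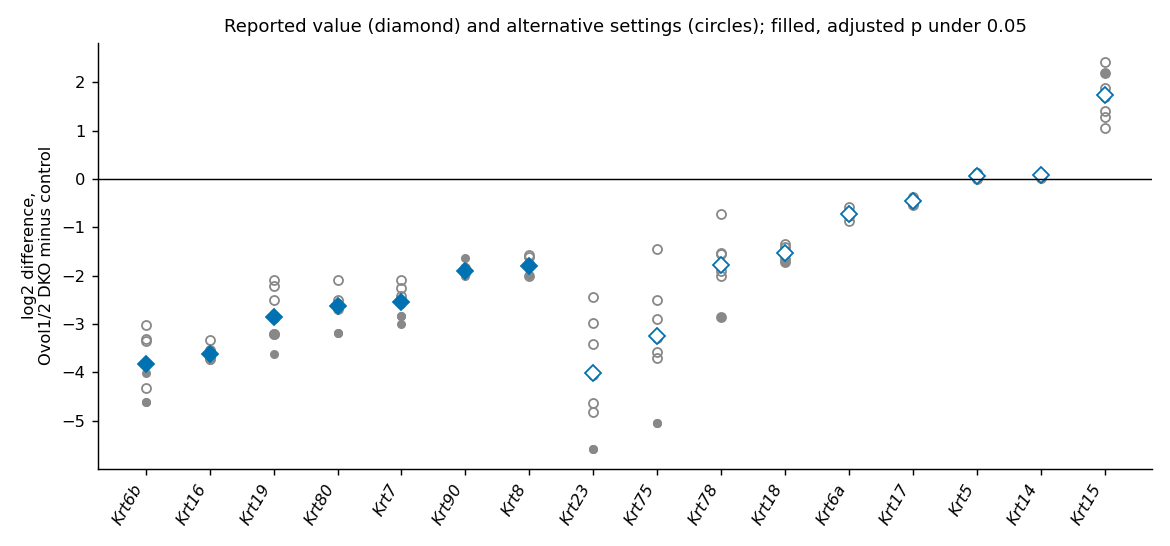
Log2 difference, Ovol1/2 DKO minus control (y axis), of 16 keratins (x axis): the diamond is the reported value and each circle 1 of 15 alternative settings, filled where the adjusted p was under 0.05. The reported values and all their alternatives lie below 0 for the first 13 genes, those of Krt5 and Krt14 lie between -0.0015 and 0.13, and Krt15 stays above 1.

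The 7 keratins that fell kept their sign under all 15 alternatives, with sizes that varied. Over these settings the log2 difference ran from -4.62 to -3.02 for Krt6b, from -3.74 to -3.32 for Krt16, from -3.62 to -2.09 for Krt19, from -3.19 to -2.08 for Krt80, from -3.00 to -2.09 for Krt7 and from -2.01 to -1.57 for Krt8; for Krt90 it reached -1.63 at its weakest. The call held in 13 of the 15 for Krt90, 12 for Krt7, 11 for Krt80, 10 for Krt16 and Krt8, 8 for Krt6b and 6 for Krt19. Krt16 lost it without either control array, and each of the 7 except Krt7 and Krt19 lost it without Ovol1/2 DKO replicate 2. None of the 7 kept it without Ovol1/2 DKO replicate 1.

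The promoters of keratins that fell are printed to show the start-site sequence of genes that moved in the same direction. RefSeq (GRCm38.p6) gave the 300 bases from 250 before to 50 after the gene start for 36 keratins, of the 7 for Krt7, Krt8 and Krt90. They are written 5′ to 3′ in gene direction, with motif matches in capitals. The motifs searched on both strands were TGANTCA, a loose pattern that takes in the AP-1 site TGACTCA, and CCGTTA, a core site reported for Ovol factors. TATAAA, the sequence of the TATA box, was searched in the same way. The Krt7 window is chr15:101412153-101412452, plus strand, that of Krt8 chr15:102004293-102004592, minus strand and that of Krt90 chr15:101562901-101563200, minus strand.
Krt7: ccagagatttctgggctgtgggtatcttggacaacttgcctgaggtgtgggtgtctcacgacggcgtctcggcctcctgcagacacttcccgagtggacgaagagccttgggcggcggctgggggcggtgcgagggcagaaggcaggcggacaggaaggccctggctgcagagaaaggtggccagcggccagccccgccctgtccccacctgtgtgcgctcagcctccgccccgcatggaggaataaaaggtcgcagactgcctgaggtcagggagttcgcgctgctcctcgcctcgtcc
Krt8: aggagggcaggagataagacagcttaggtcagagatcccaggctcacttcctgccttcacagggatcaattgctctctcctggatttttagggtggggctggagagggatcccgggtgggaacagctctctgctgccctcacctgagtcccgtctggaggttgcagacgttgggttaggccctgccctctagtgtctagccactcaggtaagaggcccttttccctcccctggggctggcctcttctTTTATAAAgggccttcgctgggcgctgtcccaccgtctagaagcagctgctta
Krt90: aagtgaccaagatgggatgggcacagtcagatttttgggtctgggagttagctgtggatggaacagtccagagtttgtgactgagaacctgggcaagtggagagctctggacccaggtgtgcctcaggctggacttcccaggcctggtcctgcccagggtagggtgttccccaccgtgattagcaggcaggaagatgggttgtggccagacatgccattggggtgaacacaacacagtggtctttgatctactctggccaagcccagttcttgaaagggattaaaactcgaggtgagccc
The capitals in Krt8 mark 2 overlapping TATAAA matches, 1 per strand, which start at -3 and -1 relative to the gene start. The windows of Krt7 and Krt90 held none of the 3 motifs. TATAAA occurred, at any position and on either strand, in 51.4% of the 37 keratin windows and in 13.6% of all 32851 windows of that table. CCGTTA occurred in none of the keratin windows and in 2.76% of all, and TGANTCA, at both starts of Krt13 only, in 5.41% of keratin windows and 7.81% of all. The matches in 1 Krt13 window read TGACTCA and the match in the other read TGAATCA, so these shares count more than AP-1 sites. Krt7 held 21 CpG dinucleotides, the highest count among the keratin windows, against 6 in Krt8, 2 in Krt90 and a median of 5 over the keratin windows. These matches describe the letters in the windows and not binding.

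**Figure D4:**
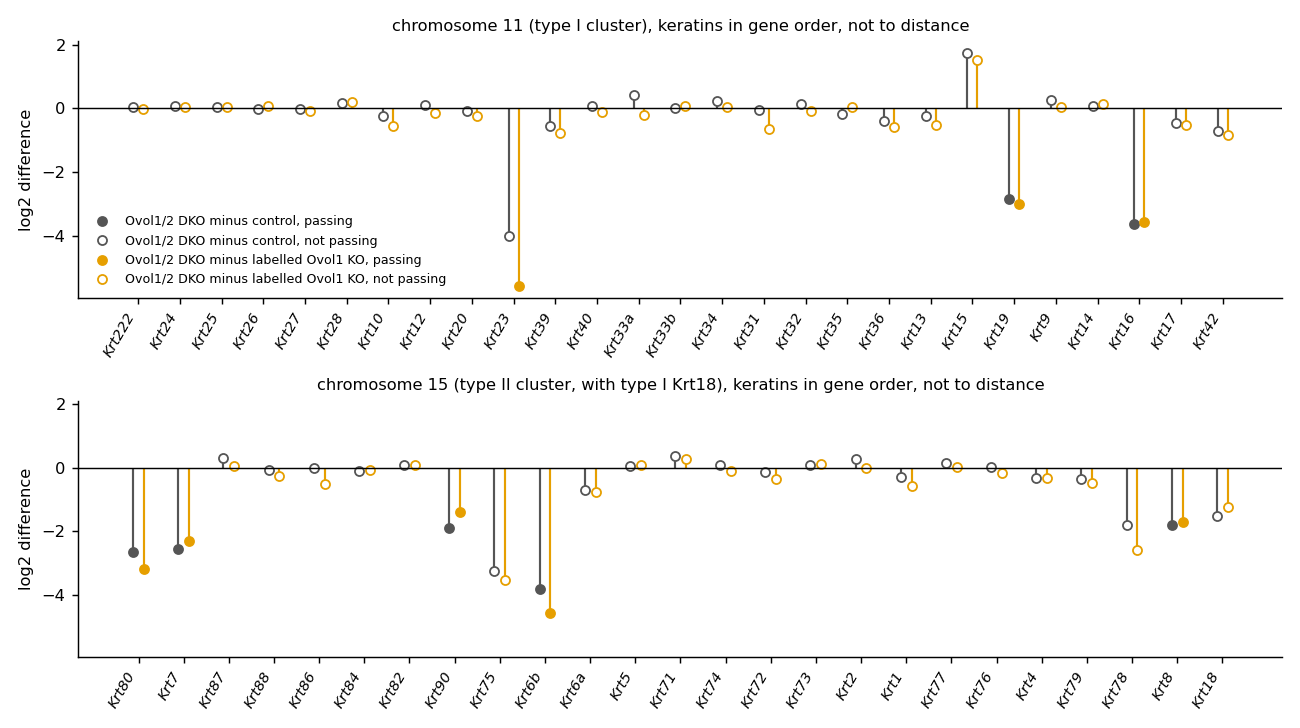
Log2 difference (y axis) of each keratin in gene order along the chromosome 11 cluster (top, 27 genes) and the chromosome 15 cluster (bottom, 25 genes), for Ovol1/2 DKO minus control (grey) and minus labelled Ovol1 KO (orange); filled circles passed at an adjusted p under 0.05. Krt16 stands between Krt14 (0.07) and Krt17 (-0.46), while Krt90, Krt75 and Krt6b, and likewise Krt80 and Krt7, are neighbours with differences from control of -1.89 or lower.

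Both types were among the keratins that fell. Of 28 type I keratins 2 passed (Krt16 and Krt19), and of 24 type II keratins 5 did (Krt6b, Krt7, Krt8, Krt80 and Krt90). Those are 7.14% and 20.8%, against 2.02% of all genes. In gene order on chromosome 15, Krt80 and Krt7 stood next to each other at one end, Krt8 with Krt18 at the other, and Krt90, Krt75 and Krt6b in a row within the cluster (-1.89, -3.25 and -3.82, the middle gene not passing). The run ended at Krt6a (-0.72) and Krt5 (0.07). On chromosome 11, Krt16 stood between Krt14 (0.07) and Krt17 (-0.46), and Krt19 between Krt15 (1.74) and Krt9 (0.27). Krt14 and Krt15 thus lay next to keratins that fell.

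The comparison of Ovol1/2 DKO with the arrays labelled Ovol1 KO shares the Ovol1/2 DKO arrays with the first, so its values stand beside those above and are no second test of them. Of the 52 keratins, 8 were lower and none higher by limma, against a background of 3.15% of all genes in either direction 1.91% lower and 1.24% higher. With replicate number as a block the same 8 passed, against 5.13% of all genes. They were the 7 named above and Krt23. Krt23 fell 47.7-fold (log2 difference -5.58, SE 1.05, limma adjusted p = 0.0442), to a mean of 5.27 below the near-background level, so its size depends on the processing (-6.42 to -4.42). The log2 difference was -4.55 (SE 0.64) for Krt6b, -3.56 (SE 0.55) for Krt16, -3.18 (SE 0.42) for Krt80, -3.02 (SE 0.51) for Krt19, -2.30 (SE 0.37) for Krt7, -1.72 (SE 0.28) for Krt8 and -1.38 (SE 0.19) for Krt90. The basal pair stood at 0.07 (SE 0.19, Krt5) and 0.12 (SE 0.19, Krt14), neither passing. The count became 1 without replicate 1 labelled Ovol1 KO (0.677% of all genes), 4 without replicate 2 of that label (3.09%), 2 without Ovol1/2 DKO replicate 2 (0.772%) and 1 with an offset of 64 (1.56%). Without Ovol1/2 DKO replicate 1 no keratin kept the call, and a smaller share of all genes passed.

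Set against control, the Ovol1 KO label gave no passing keratin. Of the 52, limma gave 0 at an adjusted p under 0.05, on a background of 0 of 19938 genes. At an unadjusted p under 0.05 it gave 1 keratin, against 153 of the 19938 genes. That keratin was Krt90, at -0.51 (SE 0.19). Both arrays labelled Ovol1 KO lay above both control arrays for 9 keratins (background 8.82%) and below them for 1 (background 10.3%). The difference was above 0 for 39 of the 52 keratins (median 0.16), against 9881 of 19938 genes, and 36 of the 52 changed sign in at least 1 setting. The largest difference was that of Krt23 (1.56, SE 1.05), whose control arrays were 3.16 apart. A p that misses the threshold does not show that the groups are alike. Of the 4 arrays in this comparison, control replicate 1 was the lowest for Krt23, Krt75, Krt6b and Krt80, and replicate 1 labelled Ovol1 KO the highest for Krt23, Krt78, Krt6b, Krt16 and Krt80. Those are the arrays that lacked Xist signal, and the part of whatever set them apart in these levels was not tested. Gaps between the 2 arrays of a group exceeded 1 on the log2 scale for 5 keratins in control (Krt75, Krt23, Krt78, Krt6b and Krt80), 4 in the arrays labelled Ovol1 KO (Krt78, Krt16, Krt23 and Krt6b) and 4 in Ovol1/2 DKO (Krt19, Krt15, Krt23 and Krt6b). Those are 9.62%, 7.69% and 7.69% of the keratins, against 5.02%, 6.06% and 2.20% of all genes. The basal pair had no such gap in any group.

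Of 17 other intermediate filament genes, 1 passed (5.88%, against 2.02% of all genes), in the opposite direction. Iffo1 rose (6.55 and 6.46 on the control arrays, 6.44 and 6.75 on those labelled Ovol1 KO and 7.89 and 8.02 on the Ovol1/2 DKO arrays; log2 difference 1.45, SE 0.21, limma adjusted p = 0.0247), and 16 did not pass. Vim, the filament of mesenchymal cells, read 11.13 and 9.92 on the control arrays, 8.39 and 9.82 on those labelled Ovol1 KO and 13.20 and 13.24 on the Ovol1/2 DKO arrays. Its Ovol1/2 DKO arrays were the highest of the 6, while those of the other groups were spread over more than 2 log2 units. Vim was 2.70 higher than in control without passing (SE 0.54, limma adjusted p = 0.0730) and passed against the arrays labelled Ovol1 KO (4.12, SE 0.54, limma adjusted p = 0.0146).

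The list of keratin linkers and binding proteins also held genes of other roles, such as Tgm1 and Krtdap. Of its 19 measured genes, 2 were lower and 17 did not pass, with a median log2 difference of -0.27. The 2 are 10.5% of the list, against 2.02% of all genes that passed in either direction. Evpl, envoplakin, which ties keratin filaments to the cornified envelope, read 8.79 and 9.10 on the control arrays, 9.19 and 9.16 on those labelled Ovol1 KO and 6.75 and 6.63 on the Ovol1/2 DKO arrays, a 4.77-fold fall (-2.25, SE 0.20, limma adjusted p = 0.00755). Tgm1, the transglutaminase that cross-links the envelope, also fell (11.74 and 12.35, 12.40 and 12.05, and 6.48 and 7.61; -5.00, SE 0.41, limma adjusted p = 0.00551). Ppl, the plakin partner of Evpl, stood at -2.16 without passing (SE 0.46, limma adjusted p = 0.0857) and passed against the arrays labelled Ovol1 KO (-2.61, limma adjusted p = 0.0357). In that second comparison Pkp3, a desmosomal plaque protein, was lower too (-1.29, SE 0.24) and Dst, which anchors keratins at hemidesmosomes, was higher (1.34, SE 0.22).

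**Figure D5:**
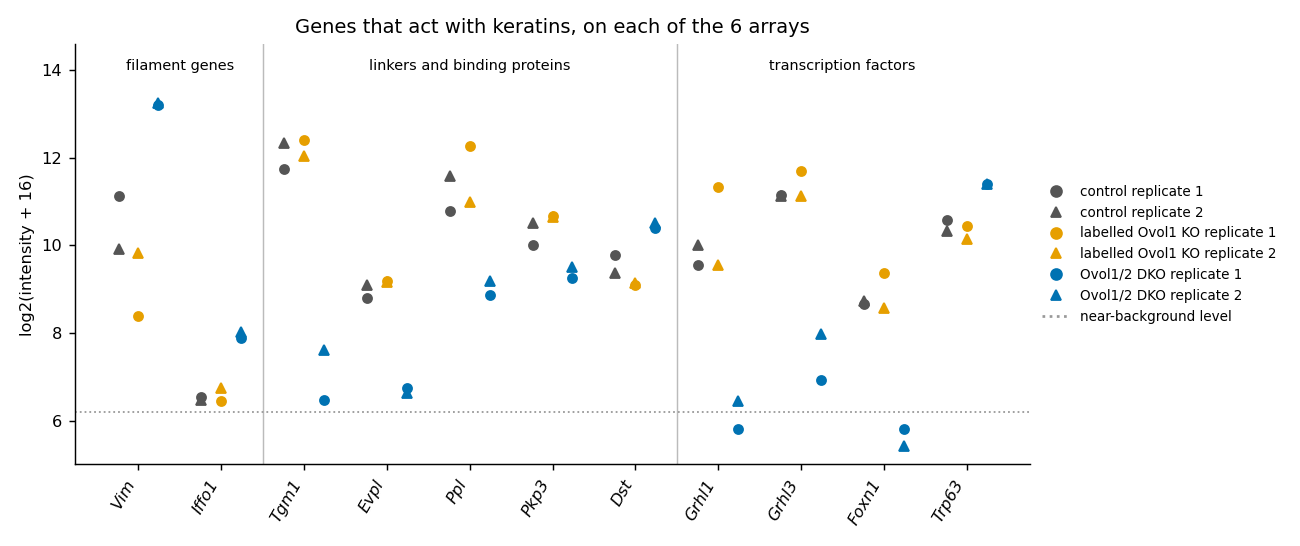
Log2 level (y axis, log2(intensity + 16)) of 11 genes that are no keratins on each of the 6 arrays, drawn as in the plot of keratin levels. On the x axis they are grouped as filament genes, linkers and binding proteins, and transcription factors. Ovol1/2 DKO points lie highest for Vim, Iffo1, Dst and Trp63 and lowest for the other 7 genes.

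Among 28 transcription factors tied to keratin genes, 3 fell, none rose and 25 did not pass (median log2 difference -0.16). The 3 are 10.7% of the list, against 2.02% of all genes that passed in either direction. With replicate number as a block 5 passed, against 2.99% of all genes, Junb (-1.03, limma adjusted p = 0.0478) and Gli2 (1.22, limma adjusted p = 0.0350) being added. Grhl3, a grainyhead factor of barrier formation, read 11.15 and 11.13 on the control arrays, 11.70 and 11.13 on those labelled Ovol1 KO and 6.94 and 7.98 on the Ovol1/2 DKO arrays (-3.68, SE 0.37, limma adjusted p = 0.00903). Its relative Grhl1 read 9.55 and 10.00, 11.32 and 9.56, and 5.80 and 6.46 (-3.65, SE 0.56, limma adjusted p = 0.0300). Foxn1, the factor mutated in nude mice, read 8.66 and 8.73, 9.38 and 8.57, and 5.80 and 5.43 (-3.08, SE 0.31, limma adjusted p = 0.00875). For all 3 the Ovol1/2 DKO arrays lay below the other 4, and the means of Grhl1 and Foxn1 there were near background. Trp63, the factor of basal keratinocytes, was 0.93 higher than control (SE 0.21, limma adjusted p = 0.102), and it passed against the arrays labelled Ovol1 KO (2.14-fold higher, limma adjusted p = 0.0464).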

How the data were processed

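The authors deposited 1 linear intensity per probe set for each of 6 one-colour arrays. Affymetrix Expression Console 1.1.1 and PLIER 2.0, which summarises probes into probe sets, are named per the submitters' processing notes. How background was corrected and arrays were normalized is not given in the sources used here. Of 35556 probe sets, 21789 had 1 gene symbol in the platform annotation, 1621 had several and were not named, and 12146 had none. Symbols were updated by Entrez identifier through a GRCm38.p6 gene table, used for names and gene order alone, with 91 unmatched; the probe set with the highest mean stood for a gene.

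limma 3.58.1 in R 4.3.3 (lmFit, eBayes) was run on log2(intensity + 16) over all 6 arrays with a mean per group, giving 3 residual and 3.68 prior degrees of freedom; p-values were Benjamini-Hochberg adjusted over 19938 genes and passed under 0.05. Standard errors are those of the fit. No exact test of 2 arrays against 2 can give a two-sided p under 0.333, and the number of arrays limits the precision (median standard error 0.245). The arrays of a group are called biological replicates in their labels. The median intensity per array was 103.3 to 109.8.

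Deviations from group means correlated between arrays of the same replicate number at 0.261, 0.490 and 0.194 for the 3 pairs of groups. The labels tie no shared day or litter to a number, so the fit without the block was kept. The keratins and the role lists were chosen with earlier results of these data known. Named with values were all basal, epidermal suprabasal, stress and simple keratins, any other keratin that passed, and from each further keratin list the one with the highest mean and up to 2 with the smallest p; of other genes, passing ones and Vim. Krt81, Krt83 and Krt85 were not analysed here. Alternatives tried were replicate number as a block, fits without each array in turn or without both arrays lacking Xist signal, only the groups compared, offsets of 1 and 64, quantile normalization, leaving out dim genes, the mean of all probe sets, and an intensity trend with robust variance.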

Additional observations from a re-analysis of the deposited data

How the results depend on the processing

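In Ovol1/2 DKO against control, 7 keratins passed, and leaving out 1 array gave 0 to 7. A group left with 1 array is taken to vary like the others. With replicate number as a block 7 passed, the same 7 (2.99% of all genes). With only the groups compared 6 did (2.06%), and with an offset of 1 also 6 (2.05%). Quantile normalization gave 5 (1.90%), and an intensity trend with robust variance 8 (2.42%). An offset of 64 left 1 (Krt90; the cause was not tested), with 0.777% of all genes passing in place of 2.02%, and leaving out both arrays without Xist signal gave 12, with 1395 genes passing in place of 403. Against the arrays labelled Ovol1 KO, 8 passed, 0 to 9 leaving out 1 array, 8 with replicate number as a block, 1 with an offset of 64 and 11 without both arrays lacking Xist signal. The comparison of the arrays labelled Ovol1 KO with control gave 0 under all 15 alternatives, including the block. The block ended or gave no keratin's call.

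List medians moved by more than the spread between arrays in few settings, the cause not tested. Without both arrays lacking Xist signal the basal median was 0.13 (Ovol1/2 DKO minus control) and 0.059 (labelled Ovol1 KO minus control), the mucosal and corneal median -0.54 (Ovol1/2 DKO minus labelled Ovol1 KO) and 0.44 (labelled Ovol1 KO minus control), and the stress median -1.72 and -0.30 in the same comparisons. Quantile normalization gave a basal median of 0.072 for Ovol1/2 DKO minus labelled Ovol1 KO. Leaving out 1 array, the stress median ran from -2.17 to -1.88 (Ovol1/2 DKO minus control), from -2.63 to -1.72 (minus labelled Ovol1 KO) and from 0.016 to 0.46 (labelled Ovol1 KO minus control), the basal median from 0.033 to 0.13, 0.090 to 0.16 and -0.091 to 0.057, and the mucosal and corneal median from -0.090 to 0.021, -0.54 to -0.0071 and -0.18 to 0.35. No keratin that passed in the reported fit or under an alternative changed sign between them. Among all 52, 18 differences from control changed sign in at least 1 setting in Ovol1/2 DKO, 20 in Ovol1/2 DKO against labelled Ovol1 KO and 36 in labelled Ovol1 KO against control. With dim genes left out, 42 keratins were tested.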

Other observations

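Keratin-associated proteins embed the hair keratins in the hair shaft. Of 44 measured genes none passed in Ovol1/2 DKO against control (median log2 difference -0.05), and 19 were near background in all groups. As 2.02% of all genes passed, a list of this size may well hold no call. Against the arrays labelled Ovol1 KO none passed, and 39 of the 44 were below 0 (median -0.25), against 9513 of 19938 genes. In labelled Ovol1 KO minus control 40 were above 0 (median 0.17), against 9881 of all genes. Both counts rest on the same arrays labelled Ovol1 KO and are no separate observations. The mean level of the 44 genes was 6.62 and 6.91 on those arrays, 6.50 and 6.68 on the control arrays and 6.50 and 6.49 on the Ovol1/2 DKO arrays. Krtdap, a secreted product of differentiating keratinocytes that is no keratin, varied more between arrays of a group than between groups, with levels of 9.72 and 8.80 on the control arrays, 11.72 and 6.91 on those labelled Ovol1 KO and 9.88 and 8.36 on the Ovol1/2 DKO arrays (Ovol1/2 DKO minus control -0.14, SE 1.41, not passing in limma).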
